A study of Mus musculus with 10 samples.

Results

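Messenger RNA was compared between Huwe1 knockdown and control C2C12 myoblasts on day 0, that is, in growth medium before differentiation was induced. The comparison rests on 3 samples of the 10 in the series, chosen because their labels place them at day 0. They are 1 control library, which the labels call wildtype, and 2 Huwe1 knockdown libraries that differ in their short hairpin RNA. C2C12 is a mouse myoblast line that divides in serum-rich medium and fuses into myotubes when serum is withdrawn, and the study examined how Huwe1 and USP10 act on TBP, the TATA-binding protein, during that change. According to the methods, knockdown was done with lentiviruses that carry the hairpin, and infected myoblasts were then selected with puromycin. The labels do not say whether the control cells had received a lentivirus or puromycin. Effects of infection, of drug selection and of Huwe1 loss therefore cannot be told apart here. All groups are a single cell line, and the labels do not state that the knockdown samples came from separate cultures.

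Huwe1 is a very large ubiquitin ligase of the HECT family. Ligases of this family take ubiquitin onto a cysteine of their own before passing it to a substrate, and Huwe1 is known for substrates such as Mcl1, Myc, p53 and histones. Loss of a ligase acts first on protein levels, whereas the values described here are RNA levels. Myoblasts in growth medium also secrete growth factors, cytokines and matrix, and they make much of their own lipid and amino acid supply.

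The hairpins are shown because they define the knockdown. Both targets were looked up in the GENCODE M21 transcripts of GRCm38, and Huwe1 was the only gene that each matched exactly over its full length. Partial matches to other genes were not searched, so the lookup does not show that the hairpins act on Huwe1 alone. The target of knockdown 1 lies in exon 32 of the 83 exons of the Huwe1 transcript and is fully coding (chrX:151883185-151883203, plus strand). The target of knockdown 2 spans the junction of exons 8 and 9, also within coding sequence (chrX:151852544-151853408 including the intron, plus strand). Both are given 5′ to 3′ and no part is marked.
Huwe1 knockdown 1, day 0: gggaacctgtgattcgaga
Huwe1 knockdown 2, day 0: gagaagaggacaactagta
The labels of the day 6 knockdown samples give the same pair of sequences, and those of the day 8 samples give another pair, which is the one listed in the methods.

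The deposited table holds 1 value per gene and condition, in FPKM (fragments per kilobase of transcript and per unit of library depth). Both knockdown libraries are pooled in 1 column, so no difference below has a replicate check, and every value is given as a size without a test. Log2 ratios are knockdown over control after adding 0.01 FPKM to both, which pulls the ratios of the lowest genes slightly towards 0. Of 23417 genes, the 10874 that reached 1 FPKM in either column were kept. From the smallest steps between FPKM values, the control library was put at about 21900000 fragments. At this depth 1 FPKM on a transcript of 2000 bases is about 44 fragments, with a 95% Poisson interval of 0.727 to 1.34 FPKM that covers counting error only. In the pooled column the step was 0.0224 FPKM times kilobases, against 0.0457 in the control.

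Huwe1 (chrX:151803282-151935417, build GRCm38) was measured at 38.3 FPKM in the control against 15.2 FPKM in the knockdown, which is 2.52-fold lower. Most of the transcriptome lay close to the control. The median log2 ratio over all kept genes was 0.00 with a robust SD of 0.29, and 89.8% of genes were within 1.5-fold. Among the kept genes, 1.69% (184 genes) were at least 2-fold lower, and 1.90% (207 genes) were at least 2-fold higher. Small RNA rows (small nucleolar RNAs, Cajal body RNAs and microRNA precursors) contributed 22 of the lower and 54 of the higher genes, although only 114 such rows were kept. Of these 114 rows, 103 carry the same locus as another row, and how reads were divided between such rows was not tested. Without them, 162 genes remained past 2-fold below the control and 153 past 2-fold above it.

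The genes with the largest differences were ranked over 6317 rows, none of them a small RNA, that reached 10 FPKM in either column and 1 FPKM in both and whose locus spans at least 500 bases. Igfbp2 (chr1:72824480-72852471), a secreted binding protein for insulin-like growth factors, stood apart from all others at 60.3 FPKM after knockdown against 547 FPKM in the control, or 9.07-fold lower. Other genes of this ranking are known from muscle. Actn3, the fast-fiber alpha-actinin, was measured at 36.1 FPKM in control cells compared with 11.01 FPKM in the knockdown. Vgll2, a cofactor of TEAD transcription factors in skeletal muscle, had 43.6 FPKM in control cells and 14.1 FPKM after knockdown. The sarcomere-associated ligase gene Trim55 had 11.4 FPKM in the control against 3.85 FPKM in the knockdown, and the creatine kinase gene Ckb had 9.94 FPKM after knockdown against 27.02 FPKM in the control. The LIM-domain genes Pdlim3 and Pdlim4 had log2 ratios of -1.44 and -1.46. The rest of the 15 largest decreases were the sorting receptor gene Sorcs2 (-1.51), Tppp3 (-1.48), Ddah2 (-1.45), Ttyh3 (-1.42), the calcium pump gene Atp2b4 (-1.38), Postn, Igfbp5 and Huwe1 itself.

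At the other end of the ranking stood Ptgs2, the inducible cyclooxygenase that starts prostaglandin synthesis, at 9.14 FPKM in control cells compared with 44.1 FPKM in the knockdown. Serpinb2, an inhibitor of plasminogen activators, had 2.88 FPKM in control cells and 13.6 FPKM after knockdown, and the metal-binding gene Mt2 had 7.72 FPKM in the control against 35.8 FPKM in the knockdown. Sdpr, which encodes a caveolar coat protein, was at 42.4 FPKM after knockdown against 10.1 FPKM in the control. The chemokine genes Cxcl5 and Cxcl1, the growth factor genes Fgf7, Ctgf and Ereg, and the BMP antagonist gene Grem1 also fell in the top 15 and are described below. Havcr2, known as an immune checkpoint receptor, had 4.07 FPKM in control cells compared with 12.7 FPKM in the knockdown. The ribosomal protein genes Rps27 (2.29) and Rpl26 (1.64) have near-identical copies elsewhere in the genome and are uncertain. Gm5424, a predicted gene, had 1.53. Neat1, a nuclear noncoding RNA, had 54.2 FPKM in control cells and 148 FPKM after knockdown.

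**Figure D1:**
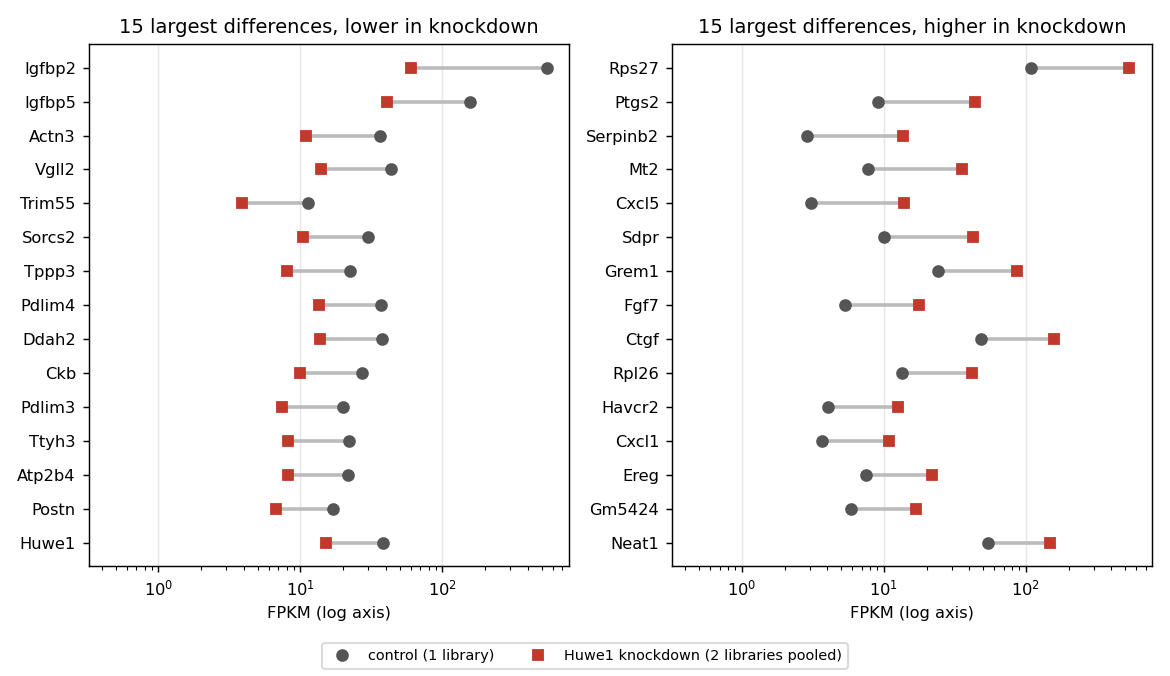
FPKM on a log axis of the 15 genes with the largest decrease (left) and the largest increase (right) in the day 0 ranking, without small RNA rows. Circles are the control library and squares the pooled knockdown libraries, and no error can be drawn. Igfbp2 covers the widest span, from 547 to 60.3 FPKM.

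The insulin-like growth factor axis passed 2-fold only in its binding proteins. Of 18 genes listed, 9 were kept, with 3 of them past 2-fold lower and 0 past 2-fold higher, beside 1.69% and 1.90% of all kept genes. All 3 were binding protein genes: Igfbp2, Igfbp5 at 156 FPKM in the control against 40.9 FPKM in the knockdown, and the less abundant Igfbp4, kept only through the control column, at 0.8805 FPKM after knockdown against 2.27 FPKM in the control. Other binding protein genes took other values, with 69.7 and 61.8 FPKM for Igfbp6 and 53.1 and 78.8 FPKM for Igfbp7, control first. The receptor genes Igf1r and Insr had log2 ratios of -0.13 and -0.03, and the scavenger receptor gene Igf2r had 0.66. The ligand genes Igf1 and Igf2 were below 1 FPKM in both columns. Igfbp2 and Igfbp5 are neighbours on chromosome 1, at chr1:72824480-72852471 and chr1:72858065-72874865.

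Chemokine and cytokine genes were mostly higher in the knockdown. Of 55 listed, 19 were kept, and 7 of these were past 2-fold higher and 0 past 2-fold lower, beside 1.90% and 1.69% over all genes. The median log2 ratio was 0.63, and 0.64 over the 16 members that reached 1 FPKM in both. Among the neutrophil-attracting chemokines, Cxcl5 had 3.08 FPKM in control cells compared with 13.9 FPKM in the knockdown, and Cxcl1 had 3.65 FPKM in control cells and 10.8 FPKM after knockdown. Cxcl12, the ligand of Cxcr4 on migrating precursor cells, had 5.87 FPKM in the control against 14.2 FPKM in the knockdown. The alarmin gene Il33 had 6.68 FPKM after knockdown against 1.97 FPKM in the control. Its receptor gene Il1rl1, which is not among the 7, had 0.802 FPKM in control cells compared with 3.38 FPKM in the knockdown. Il1rl1 was kept only through the knockdown column. Csf1, the macrophage growth factor, had the highest level of the 7, with 47.9 FPKM in control cells and 103 FPKM after knockdown. Kitl, the stem cell factor, had 10.1 FPKM in the control against 21.2 FPKM in the knockdown. Ccl5, the last of the 7, passed the minimum only in the knockdown (0.639 and 1.44 FPKM, control first). The other members stayed within 2-fold, including Ccl2 (0.29), Ccl7 (0.82) and the abundant Mif (-0.29). Il6, Il1b, Lif and Tnf were below 1 FPKM in both columns. The wider lists of inflammatory signalling had medians near 0. The 28 kept NF-kB target genes had a median of 0.04 and the 25 kept interferon-stimulated genes a median of 0.08.

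Of 27 growth factor genes kept from 45 listed, 5 were past 2-fold higher and 0 past 2-fold lower, compared with 1.90% and 1.69% of all kept genes. The median was 0.35. Fgf7, a fibroblast growth factor that acts on epithelia, had 17.7 FPKM after knockdown against 5.37 FPKM in the control, and Fgf2, a mitogen of myoblasts, had 1.36 FPKM in control cells compared with 3.74 FPKM in the knockdown. Ctgf, the matricellular factor induced by YAP and TGF-beta, had 48.1 FPKM in control cells and 157 FPKM after knockdown. Within the EGF family Ereg had 7.44 FPKM in the control against 21.97 FPKM in the knockdown, while Areg and Hbegf had log2 ratios of 0.35 and 0.51. Among the neurotrophins Bdnf had 10.5 FPKM after knockdown against 4.299 FPKM in the control. The VEGF genes took both directions, with -0.46 for Vegfa and 0.90 for Figf, which encodes VEGF-D. In the TGF-beta and BMP list 3 members were at least 2-fold higher. They were Grem1, a BMP antagonist, at 24.2 FPKM in control cells compared with 87.3 FPKM in the knockdown, Fst, which binds activins and myostatin and was kept only through the knockdown column, at 0.784 FPKM in control cells and 2.98 FPKM after knockdown, and the co-receptor gene Tgfbr3 at 2.896 FPKM in the control against 6.49 FPKM in the knockdown. None of the 26 kept members of that list was at least 2-fold lower, and its median was -0.02.

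Among 17 kept lipid mediator genes, 3 were past 2-fold lower, beside 1.69% of all kept genes. Ptgs2 (2.27) was the only one past 2-fold higher, beside 1.90%. Upstream of it, the phospholipase gene Pla2g4a had 26.8 FPKM after knockdown against 16.9 FPKM in the control. The constitutive cyclooxygenase gene Ptgs1 had a log2 ratio of -0.27, and downstream Ptges2 and Ptges3, both tied to prostaglandin E synthesis, had -0.14 and 0.16. Alox5, which opens the leukotriene branch, was abundant and had 119 FPKM in control cells compared with 58.9 FPKM in the knockdown. The thromboxane synthase gene Tbxas1 and Hpgd, whose product inactivates prostaglandins, had 1.63 and 0.636 FPKM and 1.82 and 0.528 FPKM, control first, both kept only through the control column.

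Matrix genes differed member by member. Of 44 kept glycoprotein and proteoglycan genes, 3 were past 2-fold lower and 4 past 2-fold higher, while 1.69% and 1.90% of all kept genes were. Tnc, the adhesion-modulating tenascin C, had 118 FPKM in control cells and 47.96 FPKM after knockdown, and Postn, or periostin, had 17.1 FPKM in the control against 6.74 FPKM in the knockdown. The laminin gene Lamb3 had 1.89 FPKM after knockdown against 3.86 FPKM in the control. Higher values were found for the nidogen gene Nid2 (5.88 and 14.1 FPKM, control first), the hyaluronan synthase gene Has2 (7.06 and 14.4 FPKM), the proteoglycan gene Dcn (1.27 and 4.42 FPKM) and the elastic fiber gene Fbln5 (0.831 and 3.82 FPKM), which passed the minimum only through the knockdown column. Fibronectin, Fn1, had 534 FPKM in control cells compared with 308 FPKM in the knockdown. Collagen and collagen-modifying genes were lower in 18 of 27, beside 49.7% of all kept genes, with a median of -0.29 and no member past 2-fold. The most abundant was Col1a2 at 653 FPKM in control cells and 351 FPKM after knockdown, whereas Col1a1, the other chain of type I collagen, had 144 FPKM in the control against 118 FPKM in the knockdown. Col3a1 had a log2 ratio of -0.68, and the basement membrane genes Col4a1 and Col4a2 had 0.24 and 0.22. After subtracting the median of genes of like GC content, a check described with the GC values, the collagen median was -0.14.

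Few complement and coagulation genes were expressed, and those few were mostly higher. Of 41 listed, 12 were kept and 4 were at least 2-fold higher, beside 1.90% of all kept genes. The 4 were Thbd (0.976 and 3.61 FPKM, control first), Apoe (0.399 and 1.33 FPKM), C1s (0.804 and 2.597 FPKM) and C1ra (1.23 and 2.48 FPKM). The first 3 of these passed the minimum only through the knockdown column. Over the 9 members that reached 1 FPKM in both, the median was 0.40. Among protease inhibitors Serpinb9b had 22.6 FPKM after knockdown against 10.8 FPKM in the control, while the collagen chaperone gene Serpinh1 had 734 FPKM in control cells compared with 428 FPKM in the knockdown and the urokinase gene Plau 111 FPKM in control cells and 64.3 FPKM after knockdown. Adamts4, a proteoglycan-cleaving protease, had 6.28 FPKM in the control against 2.25 FPKM in the knockdown, and the membrane protease gene Mmp15 a log2 ratio of -1.11. In the Wnt list only the low-level Dkk3 passed 2-fold, at 0.531 and 1.49 FPKM, control first. The guidance cue gene Sema3c had 3.81 FPKM after knockdown against 9.26 FPKM in the control.

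Genes of cholesterol synthesis were lower almost throughout. Of 27 kept genes, 26 were lower and 1 higher, with a median log2 ratio of -0.45. Over all kept genes 49.7% were lower and the median was 0.00. Of the 27 members, 3 were past 2-fold lower, beside 1.69% of all kept genes. The other differences were smaller and spread along the pathway. In the mevalonate steps, Hmgcs1 had 77.7 FPKM in control cells compared with 49.5 FPKM in the knockdown. The kinase and decarboxylase genes Mvk and Mvd had 15.4 and 7.702 FPKM and 18.9 and 9.202 FPKM, control first. The most abundant enzyme gene, Fdps, which makes farnesyl diphosphate, had 234 FPKM in control cells and 119.7 FPKM after knockdown. The squalene steps showed smaller differences for Fdft1 (-0.34) and Sqle (-0.24) and a larger one for Lss (11.6 and 6.02 FPKM), which closes the sterol ring. Further down, Tm7sf2, kept only through the control column, had 1.77 and 0.7699 FPKM. Lbr, which shares its reductase step with Tm7sf2, had 38.3 and 38.2 FPKM. Among the regulators, Srebf2, the main transcription factor of the pathway, had 43.5 FPKM in the control against 27.8 FPKM in the knockdown. The retention factor gene Insig1 had a log2 ratio of -0.60 and Insig2 of 0.11, the one gene above 0. Sterol efflux genes did not share this, with 3 of 7 lower and a median of 0.02.

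**Figure D2:**
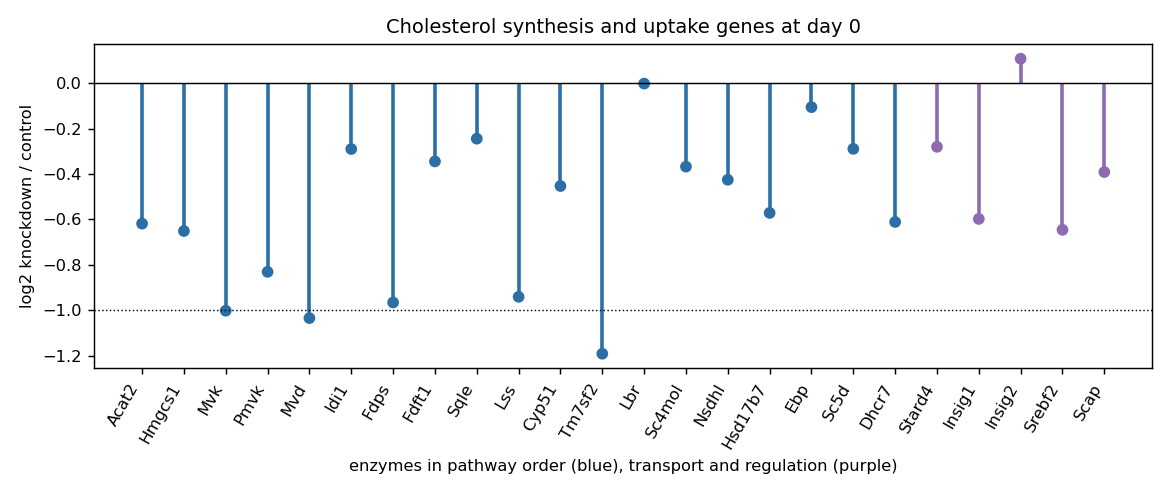
Log2 ratio of knockdown to control FPKM at day 0 for 24 of the 27 kept genes of cholesterol synthesis and uptake, enzymes in pathway order in blue and transport and regulation in purple. The dotted line marks 2-fold lower, and Insig2 at 0.11 is the only point above 0.

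Promoters were read for these genes, which lay below the control together. The windows, from RefSeq on build GRCm38.p6, cover the 250 bases before a start site, and 8088 kept genes had one. The box CCAAT, bound by NF-Y, which works with sterol-regulated factors, was searched on both strands. It was present in 15 of 19 windows of the cholesterol list (78.9%) and in 37.1% of the windows of all kept genes. It was as frequent in lists with medians near 0, with 19 of 23 windows of ER chaperone genes (82.6%) and 4 of 5 of sterol efflux genes. The longer sterol element TCACNCCAC was found in 1 of the 19, that of Hmgcs1, and in 0.903% of all. Its core CACNCCA was found in 26.3% and 14.9%, the GC box GGGCGG in 84.2% and 62.9%, and the E-box CACGTG in 15.8% and 8.80%. TGCNCNC, a loose form of the metal response element, was found once in the Mt1 window and 5 times in that of Mt2, but also in 4285 of the 8088 windows of all kept genes. A match describes these letters only and is not a site. Mvd and Hmgcs1 are shown as 1 gene past 2-fold and the one with the longer element, with CCAAT boxes in capitals on either strand (where the other strand holds the box it reads ATTGG). The longer element TCACNCCAC is also in capitals, and each run is 5′ to 3′ along the gene.
Mvd, chr8:122443423-122443672, minus strand: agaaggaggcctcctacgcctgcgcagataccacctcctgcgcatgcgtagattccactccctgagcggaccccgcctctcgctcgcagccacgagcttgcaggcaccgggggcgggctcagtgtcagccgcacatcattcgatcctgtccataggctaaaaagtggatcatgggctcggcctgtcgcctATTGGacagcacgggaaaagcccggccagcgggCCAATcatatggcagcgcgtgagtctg
Hmgcs1, chr13:119690101-119690350, plus strand: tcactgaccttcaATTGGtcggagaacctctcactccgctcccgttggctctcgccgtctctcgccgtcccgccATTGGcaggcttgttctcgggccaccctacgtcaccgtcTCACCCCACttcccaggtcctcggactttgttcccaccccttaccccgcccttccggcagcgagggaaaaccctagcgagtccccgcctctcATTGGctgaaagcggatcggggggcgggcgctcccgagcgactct
The Mvd window holds 2 CCAAT boxes and the Hmgcs1 window 3.

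Fatty acid synthesis genes were lower alongside. Of 30 kept genes, 22 were lower, beside 49.7% of all kept genes, with a median of -0.42. The desaturase genes Scd2 and Scd1 had 273 and 144 FPKM and 119.9 and 67.8 FPKM, control first. Fasn, the fatty acid synthase, had 33.6 FPKM after knockdown against 56.95 FPKM in the control, and Acly and Acaca, which supply and carboxylate acetyl-CoA, had log2 ratios of -0.64 and -0.53. The factor gene Srebf1 had 14.7 FPKM in control cells compared with 10.2 FPKM in the knockdown. One member, the acyl-CoA synthetase gene Acsl6, was past 2-fold at 5.78 FPKM in control cells and 2.402 FPKM after knockdown. Over all kept genes, 1.69% were past 2-fold lower. The lipid droplet gene Plin2 was among those above 0, at 95.8 FPKM in the control against 124 FPKM in the knockdown. Idh1, which makes NADPH in the cytosol, had 42.6 FPKM after knockdown against 87.1 FPKM in the control. In fatty acid oxidation and uptake the median was -0.08, with the entry enzyme gene Cpt1a at 9.07 FPKM in control cells compared with 13.9 FPKM in the knockdown. Its members past 2-fold, Ucp2 (-1.32), Fabp3 (-1.16) and Fabp4 (2.17), were all under 2 FPKM.

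Central carbon metabolism mostly stayed within 2-fold, as most kept genes did. None of the 30 kept glycolysis genes was past 2-fold, beside 1.69% of all kept genes past 2-fold lower and 1.90% higher. Their median was -0.05. The most abundant, Pkm, nevertheless had 3053 FPKM in control cells and 1736 FPKM after knockdown, and the glucose transporter gene Slc2a1 had 138 FPKM in the control against 97.98 FPKM in the knockdown. The 24 kept genes of the TCA cycle had a median of -0.10, and the 72 of the respiratory chain and ATP synthase a median of -0.04. Ndufs5, a small complex I subunit, was the one respiratory gene past 2-fold, at 45.1 FPKM after knockdown against 17.1 FPKM in the control. Medians were 0.17 for nucleotide synthesis, 0.05 for polyamines and -0.03 for serine, glycine and one-carbon genes.

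Where 49.7% of all kept genes were lower, 25 of 34 amino acid genes were, with a median of -0.42. Of these, 3 were past 2-fold lower and 3 past 2-fold higher, against 1.69% and 1.90% of all kept genes. The lower ones all encode transporters. Slc7a3, a carrier of cationic amino acids, had 5.73 FPKM in control cells compared with 1.54 FPKM in the knockdown, Slc7a11, which imports cystine for glutathione, had 6.97 FPKM in control cells and 2.91 FPKM after knockdown, and the glycine transporter gene Slc6a9 had 13.7 FPKM in the control against 6.702 FPKM in the knockdown. The leucine transporter pair Slc7a5 and Slc3a2 had 80.97 and 52.3 FPKM and 126 and 86.2 FPKM, control first. The most abundant enzyme gene, Asns, which makes asparagine, had 410.2 FPKM after knockdown against 629.6 FPKM in the control. The higher ones were Ass1 of arginine synthesis at 3.104 FPKM in control cells compared with 6.79 FPKM in the knockdown, the glutamate transporter gene Slc1a3 at 2.32 FPKM in control cells and 4.76 FPKM after knockdown, and the enzyme gene Bckdhb, kept only through the knockdown column, at 0.806 FPKM in the control against 2.35 FPKM in the knockdown.

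Many of these amino acid genes are known targets of ATF4, the factor at the centre of the integrated stress response. Over that list, 21 of 29 kept genes were lower, beside 49.7% of all kept genes, with a median of -0.35. The 2 past 2-fold lower, beside 1.69% of all kept genes, were Slc7a11 and the hormone gene Stc2. Stc2 had 2.27 FPKM after knockdown against 4.74 FPKM in the control. Atf3 had 14.9 FPKM in control cells compared with 7.74 FPKM in the knockdown, Chac1, which degrades glutathione, had 33.3 FPKM in control cells and 18.97 FPKM after knockdown, and Trib3 had 17.5 FPKM in the control against 12.2 FPKM in the knockdown. The RNA of Atf4 itself was at 249 FPKM after knockdown against 209 FPKM in the control, and that of Ddit3, or CHOP, at 57.1 FPKM in control cells compared with 67.9 FPKM in the knockdown, both above the control. The kinase genes Eif2ak3 and Eif2ak4 had log2 ratios of 0.21 and 0.14. Herpud1, a membrane protein of the ER degradation machinery, was the one ER gene past 2-fold at 107 FPKM in control cells and 44.2 FPKM after knockdown, while the ER chaperone list had a median of -0.03 over 32 genes. The element TGATGNAA, which ATF4 and its partners bind, was present in 5 of 24 windows of the integrated stress response list (20.8%), in 3 of 12 of the aminoacyl-tRNA synthetase list (25%), which had a median of -0.15, and in 1.81% of all kept genes. The Slc7a11 window is shown as it holds 2 copies, in capitals (TTGCATCA on the other strand).
Slc7a11, chr3:50443614-50443863, minus strand: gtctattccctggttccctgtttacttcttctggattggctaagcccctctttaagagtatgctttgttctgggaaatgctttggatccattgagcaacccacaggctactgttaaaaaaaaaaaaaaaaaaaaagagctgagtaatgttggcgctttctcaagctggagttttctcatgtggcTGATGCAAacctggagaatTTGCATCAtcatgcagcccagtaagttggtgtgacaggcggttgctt

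Mt2 (chr8:94172618-94173567) had the largest ratio of all genes on the stress lists, at 4.64-fold higher, and its neighbour Mt1 (chr8:94179089-94180327) had 30.8 FPKM in the control against 61.1 FPKM in the knockdown. Metallothioneins bind zinc and copper and buffer them. The 19 kept genes of the metallothionein and zinc list had a median of 0.13. Slc30a1, the zinc exporter gene that responds to metal through the same factor, had 2.496 FPKM after knockdown against 1.97 FPKM in the control, and the factor gene Mtf1 had 4.71 FPKM in control cells compared with 5.23 FPKM in the knockdown. Of the antioxidant genes, Akr1b3 had 16.5 FPKM in control cells and 34.2 FPKM after knockdown and Hmox1, or heme oxygenase, had 14.3 FPKM in the control against 26.4 FPKM in the knockdown, while Gpx1 had 111 FPKM after knockdown against 184 FPKM in the control and the list median was 0.04 over 47 genes. Slc40a1, the iron exporter, had 2.11 FPKM in control cells compared with 0.847 FPKM in the knockdown.

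Other stress lists lay closer to 0. Among all kept genes, 49.7% were lower and 50.3% higher, with 1.69% past 2-fold lower and 1.90% past 2-fold higher. Heat shock genes were higher in 20 of 30 with none past 2-fold and a median of 0.13. Hypoxia targets were lower in 20 of 25, with a median of -0.24 and Ankrd37 past 2-fold at 7.59 FPKM in control cells and 3.61 FPKM after knockdown. The p53 targets were higher in 22 of 32 with a median of 0.09. Within them, Ccng1 had 131 FPKM in the control against 224 FPKM in the knockdown, Eda2r had 19.1 FPKM after knockdown against 10.99 FPKM in the control and Mdm2, the ligase of p53, had 65.5 FPKM in control cells compared with 99.4 FPKM in the knockdown, whereas Cdkn1a, the main arrest gene, had 77.8 FPKM in control cells and 80.7 FPKM after knockdown. Immediate early genes had a median of 0.01 over 50, with Dusp2, Egr2 and Nr4a3 past 2-fold lower at -1.31, -1.19 and -1.16. Lysosome and autophagy genes had none past 2-fold in 39.

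**Figure D3:**
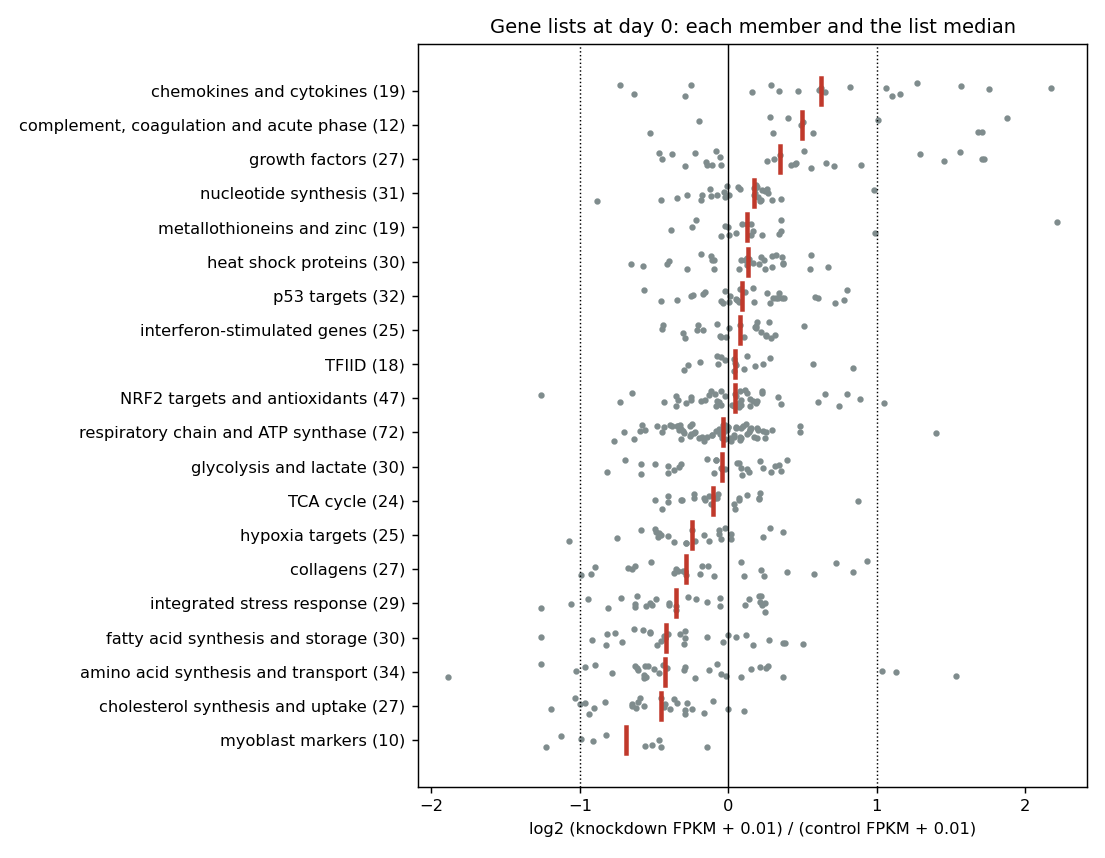
Log2 ratio of knockdown to control FPKM at day 0 for every kept member (grey points) of 20 gene lists, with the number of kept genes in brackets and the list median as a red bar. Dotted lines mark 2-fold. Medians run from -0.69 for myoblast markers to 0.63 for chemokines and cytokines.

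The chemokine promoters were examined in the same way. The NF-kB element GGGNNTTTC was found in 2 of 12 windows of the chemokine and cytokine list (16.7%), those of Cxcl1 and Csf1, and in 3.65% of windows of all kept genes. The NF-kB target list, with its median of 0.04, held it in 5 of 21 windows (23.8%). The Cxcl1 window is shown with its 2 matches in capitals, 1 of them on the other strand.
Cxcl1, chr5:90890995-90891244, plus strand: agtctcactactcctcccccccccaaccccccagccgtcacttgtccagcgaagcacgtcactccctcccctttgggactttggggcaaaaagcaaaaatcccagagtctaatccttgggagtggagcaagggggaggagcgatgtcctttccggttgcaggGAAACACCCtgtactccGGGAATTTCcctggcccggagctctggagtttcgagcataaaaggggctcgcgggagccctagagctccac

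Genes close to Huwe1 in function mostly lay near their control levels, as did most kept genes, of which 89.8% were within 1.5-fold. Among 24 kept HECT ligase genes, Huwe1 was the only one past 2-fold, and the others ranged from -0.44 (Hecw2) to 0.40 (Smurf2). Nedd4, the most abundant, had 253 FPKM in the control against 277 FPKM in the knockdown. Of 12 kept genes for known substrates none was past 2-fold. Over all kept genes, 1.69% were past 2-fold lower and 1.90% past 2-fold higher, so this absence is not particular to them. Tbp had 26.7 FPKM after knockdown against 22.7 FPKM in the control, Mcl1 had 41.5 FPKM in control cells compared with 49.7 FPKM in the knockdown, Myc had 38.04 FPKM in control cells and 35.6 FPKM after knockdown and Trp53 had 72.2 FPKM in the control against 64.7 FPKM in the knockdown. All 18 genes for TFIID subunits and relatives were kept, with a median of 0.04 and the largest difference for the low-level Taf7, at 1.92 FPKM after knockdown against 1.07 FPKM in the control. Usp10, the deubiquitinase studied beside Huwe1, had 68.5 FPKM in control cells compared with 64.2 FPKM in the knockdown. Among the most abundant messages, the elongation factor gene Eef1a1 had 5886 FPKM in control cells and 5396 FPKM after knockdown, the intermediate filament gene Vim 5150.2 FPKM in the control against 5722 FPKM in the knockdown and the actin-binding gene Tmsb10 2759.9 FPKM after knockdown against 4594 FPKM in the control.

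Muscle genes outside those named above were few, since most sarcomere genes were below 1 FPKM in growth medium. Among 20 kept sarcomere genes, 6 were past 2-fold lower and 3 past 2-fold higher, where all kept genes had 1.69% and 1.90%. Tnnt2, the embryonic troponin T, was the most abundant of the lower ones at 183 FPKM in control cells compared with 80.8 FPKM in the knockdown. The 3 higher ones, Tnnc2, Lmod1 and Myl4, all lay at or below 2.33 FPKM and passed the minimum only through the knockdown column. The other lower ones were Tnnt1 (2.58 and 0.616 FPKM, control first), Xirp1 (3.38 and 0.828 FPKM), Tnni2 (2.35 and 0.894 FPKM), and the Actn3 and Pdlim3 described above. Tnnt1, Xirp1 and Tnni2 passed the minimum only through the control column, so that among the 14 members with 1 FPKM in both columns 3 were past 2-fold lower and 0 higher. Of the 17 kept genes for calcium handling and muscle metabolism, 15 were lower, beside 49.7% of all kept genes, with a median of -0.62. The sarcoglycan gene Sgca (1.74 and 0.609 FPKM, control first) and the fetal acetylcholine receptor gene Chrng (1.02 and 0.491 FPKM) passed 2-fold lower there, both kept only through the control column. At the neuromuscular synapse, values were 8.64 FPKM in control cells and 3.96 FPKM after knockdown for the receptor kinase gene Musk and 14.4 FPKM in the control against 7.46 FPKM in the knockdown for Rapsn. Of 13 kept Notch genes, 8 were lower and 5 higher, with a median of -0.07 and 2 past 2-fold lower. The ligand gene Jag2 had 2.801 FPKM after knockdown against 7.82 FPKM in the control. The receptor genes Notch3 and Notch1 had 5.096 and 1.96 FPKM and 4.13 and 2.35 FPKM, control first. Of 33 kept smooth muscle and YAP target genes, 16 were lower and 17 higher, with a median of 0.00 and 2 past 2-fold higher. Besides Ctgf, described above, this was Actg2, the gamma actin of smooth muscle. Actg2 had 56.8 FPKM in control cells compared with 136 FPKM in the knockdown. Among myogenic regulators, 19 of 23 kept genes were lower, beside 49.7% of all kept genes, with a median of -0.15. Only 2 passed 2-fold, the determination factor gene Myod1 at -1.22 and Eya4, a coactivator of homeobox factors in muscle, at 1.07. The integrin gene Itgb7 had 15.1 FPKM in control cells and 37.9 FPKM after knockdown and Itga7, the laminin receptor of muscle, 88.1 FPKM in the control against 46.8 FPKM in the knockdown. The adhesion genes Itgb8 (-1.25) and Nrcam (1.47) passed 2-fold at lower levels. The imprinted noncoding RNA H19 had 13.5 FPKM after knockdown against 32.9 FPKM in the control.

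The label of myoblasts was checked against marker genes. All 10 myoblast markers were kept in these data, and all 10 were lower in the knockdown, with a median of -0.69 and a summed level of 678 FPKM for control cells and 376 FPKM for knockdown cells. The largest was Des, or desmin, at 345 FPKM in control cells compared with 173 FPKM in the knockdown. Of 9 markers of differentiated muscle, 2 were kept, and their sum was 10.6 and 11.8 FPKM, with Myog at 0.164 and 0.153 FPKM. Markers of other cell types were mostly near 0, with exceptions. Ptprc and Itgam of leukocytes, Epcam of epithelium, Pecam1 of endothelium and Adipoq of adipocytes were all below 0.1 FPKM in both columns, and Pecam1, Epcam and Adipoq were listed at 0. Other members of these lists were expressed, namely Cdh5 of endothelium (13.5 and 11.2 FPKM, control first), Pparg of adipocytes (10.6 and 14.6 FPKM), Krt14 of epithelium (1.78 and 1.33 FPKM), and Sox9 (35.1 and 26.1 FPKM) and Runx2 (13.8 and 12.5 FPKM) of bone and cartilage. Cd68 of macrophages (0.7803 and 1.35 FPKM) and Fabp4 of adipocytes (0.287 and 1.33 FPKM) were kept only through the knockdown column. Fibroblast markers were mixed. Their sum was 201 and 183 FPKM, Pdgfra had 2.37 and 2.29 FPKM, Dcn, the only one past 2-fold, had 1.27 and 4.42 FPKM and Thy1 was listed at 0 in both columns. In bulk RNA fewer cells of a type and less RNA per cell cannot be told apart, and the part of the myoblast markers and of these other markers in the other differences was not tested.

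GC content moved with the day 0 ratios. Over the 10382 genes that reached 1 FPKM in both columns and had a GC value, the Spearman correlation between log2 ratio and GC content of the longest GENCODE transcript was -0.33, beside -0.03 in the day 6 table, 0.07 in the day 8 table and 0.04 in the USP10 table. Genes share their libraries and are not independent replicates, so this is a description. The median log2 ratio ran from 0.16 to -0.16 over 10 equal groups of genes from the lowest to the highest GC content. Subtracting the median of genes of like GC content, in 20 bins, left 161 genes past 2-fold lower and 200 past 2-fold higher. On that scale Igfbp5 had a log2 ratio of -1.92 and Mvd of -0.88. The list medians became -0.50 for cholesterol, -0.35 for fatty acid synthesis, -0.37 for amino acids, -0.29 for the integrated stress response, 0.70 for chemokines and cytokines and -0.63 for myoblast markers, each with its direction kept.

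**Figure D4:**
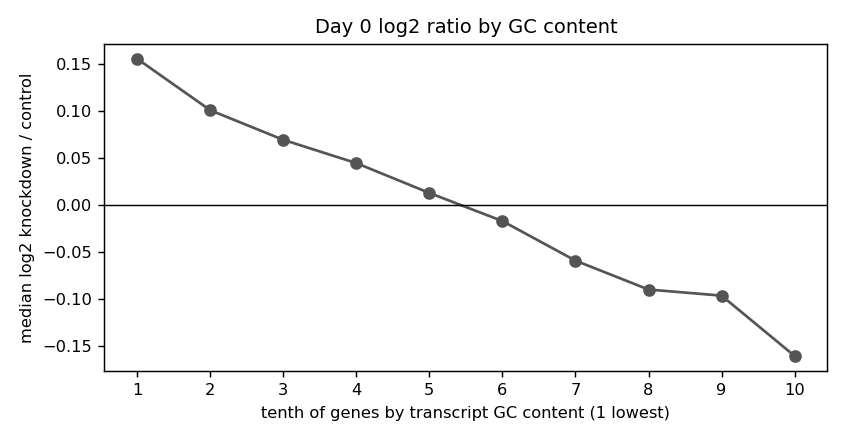
Median log2 ratio of knockdown to control FPKM at day 0 in 10 equal groups of genes ordered by transcript GC content, from the lowest to the highest. The line falls from 0.16 in the first group to -0.16 in the last.

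The same genes were read in the tables of day 6 and of day 8 myotubes, which were normalized separately and hold their own control. Per the methods, myotubes were infected after differentiation had begun, and the day 8 labels give another pair of hairpins. The day 8 table is therefore not a later stage of the day 0 knockdown. Huwe1 had log2 ratios of -0.68 at day 6 and -0.75 at day 8, both smaller in size than at day 0. Igfbp2 was also lower at day 8 (19.9 and 2.87 FPKM, control first), and at day 6 its level was low in both columns (3.198 and 4.54 FPKM). Igfbp5 had 0.22 and 0.80. Cholesterol genes were lower in all 3 tables, with list medians of -0.65 at day 6 and -1.46 at day 8, and Fdps had -1.28 and -2.46. Chemokine and cytokine medians were 2.79 and 1.08, each over its own kept members. Cxcl12 had 6.33 and 3.83, and Csf1 2.19 and 1.44. Jag2 and H19 were lower in every table, with -1.38 and -1.35 for Jag2 and -2.57 and -1.71 for H19. Other genes did not keep their direction. Mt2 had 49.8 and 18.2 FPKM at day 6 and 96.2 and 1379 FPKM at day 8, control first, and Ptgs2 had 6.33 and 5.18 FPKM and 3.74 and 4.11 FPKM. Collagen genes, lower at day 0, had a median of 1.23 at day 6, where Col1a2 had 42.1 and 409 FPKM, and of 0.05 at day 8. Fgf7 had 2.09 at day 6 and -1.12 at day 8.

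**Figure D5:**
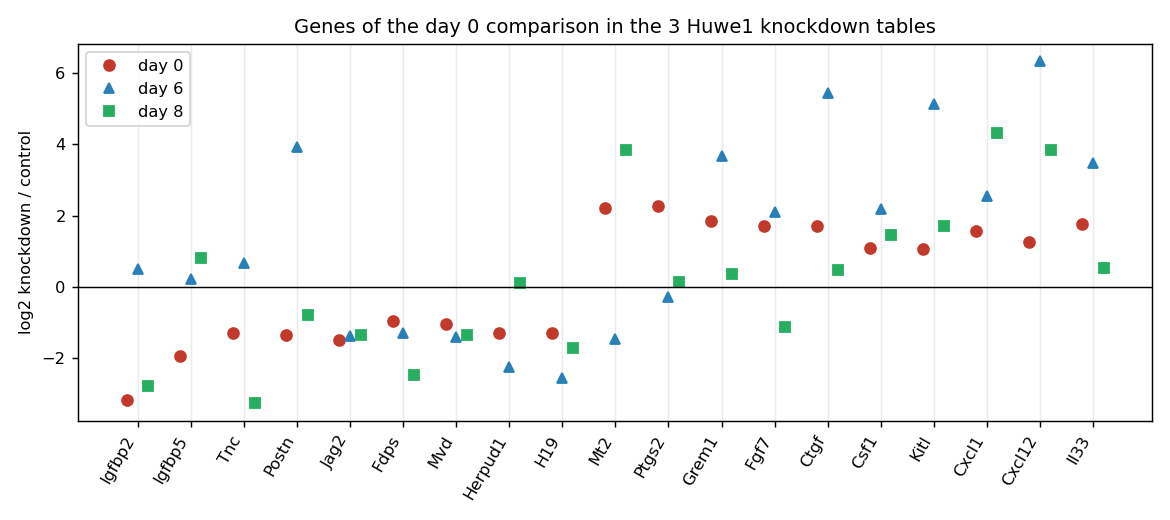
Log2 ratio of knockdown to control FPKM for 19 genes of the day 0 comparison at day 0 (circles), day 6 (triangles) and day 8 (squares), each from its own table. Jag2, Fdps, Mvd and H19 lie below 0 in all 3 tables, and Grem1, Ctgf, Csf1, Kitl, Cxcl1, Cxcl12 and Il33 above 0. Mt2 and Ptgs2 are below 0 at day 6 only.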

How the data were processed

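RNA was measured in day 0 C2C12 myoblasts in 1 control library and 2 knockdown libraries. Per the methods, mRNA was purified on oligo(dT) beads, libraries were made with a ScriptSeq kit and sequenced on an Illumina instrument, and reads were mapped with Tophat and compared with Cuffdiff. The submitters' processing notes name Bowtie2, Cuffdiff and build mm10, and versions and annotation are not given in the sources used here. The deposited values are FPKM per gene, computed by the authors with Cuffdiff, with the knockdown libraries pooled. The deposited tables also hold the authors' log2 fold changes, test scores, p-values and q-values, which were not used.

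Log2 ratios used a pseudocount of 0.01 FPKM. Genes that reached 1 FPKM in either column were kept, whatever their Cuffdiff status. With 1 value per condition no test was possible. The 60 gene lists were written from general knowledge, and 1966 of their 1971 members matched. The members and lists were chosen with earlier results of these data known. Genes named are Huwe1 with the HECT, substrate and TFIID lists, the 15 largest differences each way, the members of a list past 2-fold or up to 4 with the largest ratios, pathway-defining members and the most abundant genes. Small RNA rows were set aside from the ranking after the values were seen. Further list members are given by counts and ranges, and a few are counted but not reported here by name. GC content came from GENCODE M21 transcripts and 8 promoter motifs were searched in RefSeq windows. Depth was estimated from genes with 1 transcript of at least 1500 bases. Ratios, depth and GC adjustment were tested on simulated data. Results were recomputed with pseudocounts of 0.1 and 1, with 5 FPKM in either column or 1 FPKM in both as the minimum, after centring on the median gene, without loci under 500 bases, with tested genes only (status OK) and, added after the data were seen, adjustment for GC content. Python 3.11.15, numpy 2.4.6, pandas 2.3.3, scipy 1.17.1 and matplotlib 3.10.9 were used.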

Additional observations from a re-analysis of the deposited data

How the results depend on the processing

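No paired analysis was possible because the deposited columns pool the knockdown libraries, and for the same reason no library could be left out. The counts of genes at least 2-fold lower and higher depended on low values. They were 88 and 124 with a pseudocount of 1, 90 and 117 with at least 5 FPKM in either column, and 106 and 91 with at least 1 FPKM in both. With at least 5 FPKM, list medians were -0.0044 for the IGF axis, 0.94 for chemokines and cytokines, -0.22 for Notch, -0.82 for myoblast markers, -0.25 for fibroblast markers and, with a change of sign, -0.054 for metalloproteinases and inhibitors. A pseudocount of 1 gave 0.52 for chemokines and cytokines. After the GC adjustment, medians were -0.14 for collagens, 0.014 for ubiquitin genes and, with changes of sign, 0.10 for hormones and peptide signals and 0.033 for Wnt ligands and inhibitors. In all, list medians changed sign for 8 lists after the GC adjustment, 5 with at least 5 FPKM and 2 after centring. Fewer low genes enter under the stricter minimums, and the cause of the other shifts was not tested. The 51 genes followed singly were chosen for their large differences, and a stricter minimum or filter leaves a ratio unchanged. That none of them changed sign under the 8 alternatives was therefore largely fixed in advance and is no check. Gm5424 could not be followed with tested genes only.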

Other observations

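Host genes of small nucleolar RNAs and other nuclear noncoding RNAs were collected after their values were seen. Of 15 kept, 13 were higher in the knockdown and 7 at least 2-fold higher, beside 1.90% of all kept genes. Snhg3 had 37.3 FPKM in control cells and 92.6 FPKM after knockdown, Gas5 had 16.96 FPKM in the control against 35.1 FPKM in the knockdown and Snhg12 had 42.2 FPKM after knockdown against 22.8 FPKM in the control, while Snhg9 had 18.4 FPKM in control cells compared with 10.8 FPKM in the knockdown and Malat1 a log2 ratio of 0.29. Their median was 0.89, and 0.64 after the GC adjustment over the 13 that had a GC value. The part of reads from small nucleolar RNAs inside these genes was not tested.

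Ribosomal protein genes, also collected after their values were seen, had a median of 0.10 over 79 kept, but single members ranged from -1.10 (Rps14) to 2.29 (Rps27). Rplp1, the gene with the highest value in the control, had 23653 FPKM in control cells and 13634 FPKM after knockdown. These genes have many near-identical copies, and how reads were divided among them is not given in the sources used here.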
